A study of Mus musculus with 12 samples.

Results

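RNA levels of 10 genes are described: Trp53, which encodes the mouse p53 protein, and 9 of its target genes, Cdkn1a, Mdm2, Pmaip1, Bbc3, Ccng1, Trp53inp1, Phlda3, Gdf15 and Zmat3. They were chosen by gene symbol and make up 10 of the 28999 genes in the deposited table. The RNA came from mouse bone marrow cells labelled long-term haematopoietic stem cells (LT-HSCs), which can renew the blood for life, and was sequenced. The 4 groups, with 3 libraries each, were Trim47-/- after 5-fluorouracil, wild type after 5-fluorouracil, Trim47-/- untreated and wild type untreated. 5-Fluorouracil (5-FU) is a drug that kills cycling cells, and the labels give 10 days of treatment. Trim47 encodes a protein of the tripartite-motif family of E3 ubiquitin ligases. Strain, age, sex, the surface markers used to sort the cells and the deleted stretch of Trim47 are not given by the labels.

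The p53 protein is a transcription factor that is made all the time and destroyed almost as fast, mainly through the ubiquitin ligase Mdm2. DNA damage and other stress spare it from this destruction, and it then binds paired copies of a short response element near its target genes, which stop the cell cycle, aid repair or start cell death. Mdm2 is itself a target, so p53 raises its own inhibitor. In haematopoietic stem cells p53 is known for keeping cells quiescent and for removing cells with damaged DNA. Because p53 is controlled mostly as a protein, its own RNA level says little about its activity.

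The promoter stretches that lay closest to the p53 response element are shown because they mark where the described genes carry the letters that p53 reads. RefSeq promoter windows (250 bases before to 50 after a gene's start, build GRCm38.p6) were matched by symbol for 7 of the 10 genes. Zmat3, Trp53inp1 and Pmaip1 are named only. The capitals mark the 20 bases closest to the published consensus of a full site, 2 adjacent half-sites, and each line gives 80 bases from 5′ to 3′ on the gene's strand.
Cdkn1a: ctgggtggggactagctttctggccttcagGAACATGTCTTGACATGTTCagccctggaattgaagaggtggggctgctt
Ccng1: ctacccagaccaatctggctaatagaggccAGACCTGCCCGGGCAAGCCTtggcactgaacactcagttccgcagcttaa
Bbc3: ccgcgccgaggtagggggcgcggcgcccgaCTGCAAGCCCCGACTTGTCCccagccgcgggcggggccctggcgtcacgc
Trp53: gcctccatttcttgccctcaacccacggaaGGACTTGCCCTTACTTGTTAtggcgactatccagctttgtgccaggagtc
The Cdkn1a stretch lies at chr17:29090898-29090977 on the plus strand, with the first base of the site 51 bases before the RefSeq start used and 1 mismatch to the consensus. The other Cdkn1a window held no such site and no exact half-site. The Ccng1 stretch lies at chr11:40755432-40755511 on the minus strand, with its site 195 bases before the RefSeq start and also 1 mismatch. For Bbc3 the stretch lies at chr7:16309456-16309535 on the plus strand, with the site 97 bases before the RefSeq start behind 1 of its 3 windows and 3 mismatches. This Bbc3 stretch lies inside the gene as GENCODE M21 annotates it. For Trp53 it lies at chr11:69580254-69580333 on the plus strand, with the site 75 bases before the RefSeq start and 3 mismatches. The consensus reads the same on both strands, so 1 reading covered both, and a full site can also contain exact half-sites. A full site with at most 1 mismatch was found in 0.067% of all 32851 windows, and one with at most 3 mismatches in 1.38%. Windows of 4 of the 7 matched genes held one with at most 3 mismatches, and those of Mdm2, Phlda3 and Gdf15 did not. An exact half-site was found in 8.36% of windows, among them those of Mdm2, Ccng1, Trp53 and Cdkn1a. These matches describe letters in the windows and do not show that p53 bound there.

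Library totals ran from 13919649 to 13953510 counts in Trim47-/- after 5-FU, 15111811 to 15151589 in wild type after 5-FU, 20661120 to 20703198 in untreated Trim47-/- and 14828152 to 14885673 in untreated wild type. Trim47 RNA averaged 11.3 ± 1.09 CPM, counts scaled to the same library size, in Trim47-/- and 35.4 ± 2.50 in wild type after 5-FU (SD, n = 3 each), a log2 change of -1.64 with an adjusted p of 5.50e-07. In untreated mice it averaged 19.7 ± 3.63 CPM in Trim47-/- and 24.4 ± 0.531 in wild type, and the difference of -0.31 did not pass (adjusted p = 0.0632). After 5-FU against untreated, Trim47 RNA changed by -0.80 in Trim47-/- (edgeR, adjusted p = 0.000145) and by 0.54 in wild type (adjusted p = 0.00209). The deleted stretch is not known and the position of the Trim47 reads was not examined, so these levels do not settle the genotype. RNA of all 10 LT-HSC markers was detected in all 4 groups. Their summed level was 682 to 753 CPM in Trim47-/- and 1103 to 1262 in wild type after 5-FU, against 1226 to 1342 in untreated Trim47-/- and 1109 to 1207 in untreated wild type. The labels name no separate animals, so each p-value reflects the spread among 3 libraries a group, and that spread may be technical.

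After 5-FU, the genotypes differed in opposite directions across the p53 targets. Mdm2, Pmaip1, Bbc3 and Phlda3 were higher in Trim47-/- than in wild type, and Gdf15, Trp53inp1 and Ccng1 were lower. Trp53, Cdkn1a and Zmat3 did not pass the test. A gene passed where edgeR's quasi-likelihood test gave a Benjamini-Hochberg adjusted p under 0.05 over the 16319 genes tested, which included all 10. Thus 4 of 10 were higher and 3 lower, where 27.2% of all genes tested were higher and 27.6% lower. The median log2 change of the 10 genes was -0.00, as was that of all genes tested. The plot of CPM by library shows every value behind these comparisons.

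**Figure D1:**
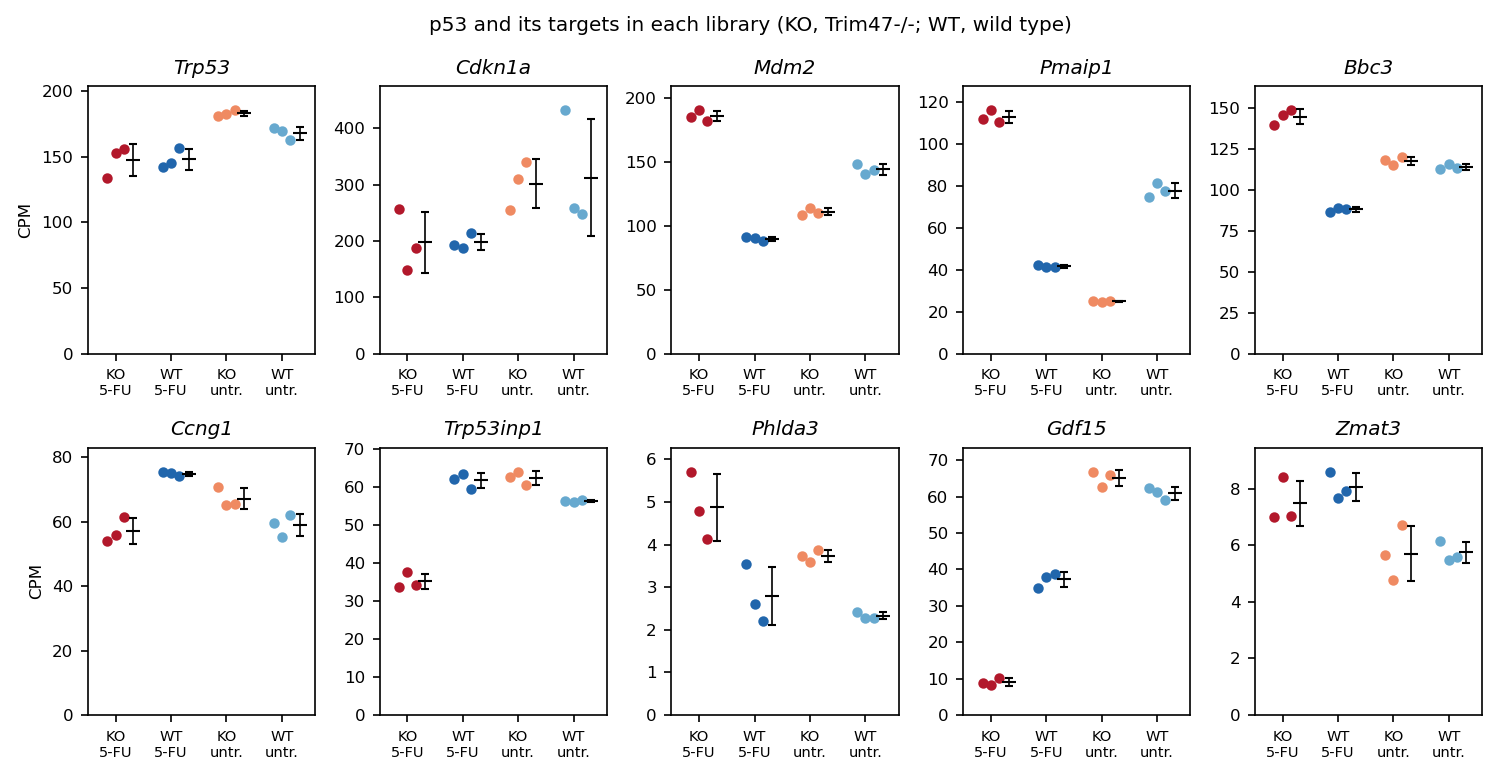
Level of the 10 genes in each library, in CPM on axes that start at 0. Each point is 1 library, and the black mark and bar beside each group are its mean and SD (n = 3). Pmaip1 stood between 111 and 116 CPM in Trim47-/- (KO) after 5-FU and between 24.7 and 25.2 CPM in untreated Trim47-/-, while Cdkn1a was scattered within groups.

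Trp53 RNA (chromosome 11, 69580359 to 69591873, plus strand, GRCm38) was 134, 153 and 156 CPM in Trim47-/- and 142, 145 and 157 CPM in wild type after 5-FU. The 2 groups overlapped, and the 95% interval of the log2 difference ran from -0.13 to 0.12 (adjusted p = 0.950). Untreated, it was 182, 183 and 186 CPM in Trim47-/- and 172, 169.6 and 163 CPM in wild type. All 3 Trim47-/- libraries lay above the wild-type ones there, but the log2 change of 0.12 (SE 0.0537) did not pass (adjusted p = 0.10). It passed in 1 of 11 alternative fits, that of only the 6 untreated libraries, with the same sign (0.10, adjusted p = 0.0280). In the others the adjusted p reached 0.250.

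Mdm2 (chromosome 10, 117688875 to 117710758, minus strand) encodes the main ubiquitin ligase of p53. Its level was 185, 191 and 182 CPM in Trim47-/- and 91.0, 90.9 and 88.1 CPM in wild type after 5-FU. The groups lay far apart, with a 2.07-fold higher level in Trim47-/- (log2 1.05, SE 0.0305, adjusted p = 3.38e-10). In untreated mice the order was turned: 109, 114 and 110.4 CPM in Trim47-/- against 148, 141 and 144 CPM in wild type. That was a fall of 0.38 on the log2 scale (SE 0.0301, adjusted p = 3.37e-06), again with no overlap. Mdm2 was thus highest in Trim47-/- after 5-FU and lowest in wild type after 5-FU.

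Ccng1 (chromosome 11, 40748552 to 40755311, minus strand) encodes cyclin G1, which brings a phosphatase to Mdm2. After 5-FU its level was 54.0, 56.0 and 61.6 CPM in Trim47-/- and 75.5, 75.1 and 74.2 CPM in wild type, without overlap (log2 -0.39, SE 0.0565, adjusted p = 0.000125). Untreated libraries showed the other order, with 70.9, 65.4 and 65.5 CPM in Trim47-/- and 59.8, 55.4 and 62.1 CPM in wild type. This smaller difference of 0.19 (SE 0.0562, adjusted p = 0.0244) no longer passed without untreated wild-type library 2 (0.14, adjusted p = 0.0907) or untreated Trim47-/- library 1 (0.15, adjusted p = 0.0870). It also missed the threshold in the DESeq2 test (adjusted p = 0.0504) and in a fit of only the 6 libraries (adjusted p = 0.0625). The genotype difference of Mdm2 and that of Ccng1 were thus opposite to each other in both conditions.

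Pmaip1 and Bbc3, 2 targets that start cell death, were higher in Trim47-/- than in wild type after 5-FU. Pmaip1 (chromosome 18, 66458533 to 66465565, plus strand) encodes Noxa, and Bbc3 (chromosome 7, 16308393 to 16318205, plus strand) encodes Puma, both BH3-only proteins that counter the survival proteins of the Bcl-2 family. Pmaip1 was 112, 116 and 111 CPM in Trim47-/- and 42.4, 41.1 and 41.5 CPM in wild type after 5-FU, a 2.71-fold higher level (log2 1.44, SE 0.0376, adjusted p = 1.37e-10). Untreated, it was 25.2, 24.7 and 25.0 CPM in Trim47-/- and 74.6, 81.4 and 77.4 CPM in wild type, a 3.11-fold lower level (log2 -1.64, SE 0.0384, adjusted p = 3.91e-10). No 2 of the 4 groups overlapped, and the spread within each group was small beside the differences. Bbc3 was 139, 146 and 148 CPM in Trim47-/- and 86.3, 89.1 and 88.5 CPM in wild type after 5-FU (log2 0.72, SE 0.0301, adjusted p = 5.99e-09). In untreated mice it was 118, 115 and 119.7 CPM in Trim47-/- and 112, 116 and 113 CPM in wild type. There the groups overlapped, and the interval of the log2 difference was -0.02 to 0.12 (adjusted p = 0.238).

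Cdkn1a, Phlda3 and Zmat3 restrain growth by different routes. Cdkn1a (chromosome 17, 29090976 to 29100727, plus strand) encodes p21, an inhibitor of cyclin-dependent kinases. Its level was 256, 148 and 188 CPM in Trim47-/- and 192, 187 and 215 CPM in wild type after 5-FU, and 254, 309 and 341 CPM in untreated Trim47-/- against 432, 258 and 247 CPM in untreated wild type. The genotypes overlapped in both conditions, and the interval of the log2 difference was wide, from -0.53 to 0.52 after 5-FU (adjusted p = 0.992) and from -0.57 to 0.47 untreated (adjusted p = 0.892). Cdkn1a was the least repeatable of the 10 genes: within groups its chi-square per degree of freedom was 17.1 to 492, where counting noise alone exceeds 4.61 in 1% of cases. Of all genes compared in this way, 12.6% to 13.9% exceeded that value in each group. Trp53 exceeded it in 2 groups, reaching 12.7, and the other 8 genes in none. Cdkn1a was also the only one of the 10 overlapped by another annotated gene, AC167363.2 on the other strand, and the strand setting of the counting is not given in the sources used here.

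Phlda3 (chromosome 1, 135766119 to 135769136, plus strand) encodes an inhibitor of the kinase Akt and was counted at only 33 to 79 reads a library. It was 5.71, 4.78 and 4.13 CPM in Trim47-/- and 3.54, 2.59 and 2.21 CPM in wild type after 5-FU, and 3.73, 3.58 and 3.86 CPM in untreated Trim47-/- against 2.42, 2.29 and 2.28 CPM in untreated wild type. Trim47-/- lay above wild type without overlap in both conditions, by 0.81 on the log2 scale after 5-FU (SE 0.164, adjusted p = 0.00142) and 0.68 untreated (SE 0.169, adjusted p = 0.0101). Phlda3 was the only one of the 10 that passed in the same direction in both. Zmat3 (chromosome 3, 32334792 to 32366014, minus strand) encodes an RNA-binding zinc finger protein. Its level was 7.01, 8.40 and 7.03 CPM in Trim47-/- and 8.59, 7.65 and 7.91 CPM in wild type after 5-FU, and 5.64, 4.76 and 6.70 CPM in untreated Trim47-/- against 6.15, 5.47 and 5.60 CPM in untreated wild type. The genotypes overlapped both times, with intervals of -0.39 to 0.18 after 5-FU (adjusted p = 0.499) and -0.31 to 0.28 untreated (adjusted p = 0.963).

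Gdf15 and Trp53inp1 were lower in Trim47-/- after the drug. Gdf15 (chromosome 8, 70629393 to 70632456, minus strand) encodes a secreted stress cytokine of the TGF-beta family. It was 8.74, 8.18 and 10.2 CPM in Trim47-/- and 35.0, 38.0 and 38.8 CPM in wild type after 5-FU, a 4.12-fold lower level (log2 -2.04, SE 0.0748, adjusted p = 2.24e-09). Untreated, it was 66.8, 62.6 and 66.0 CPM in Trim47-/- and 62.5, 61.3 and 59.0 CPM in wild type, and the log2 change of 0.10 did not pass although the groups did not overlap (adjusted p = 0.281). Trp53inp1 (chromosome 4, 11156431 to 11174379, plus strand) encodes a stress protein that acts with p53 in the nucleus and in autophagy in the cytoplasm. Its level was 33.7, 37.5 and 34.2 CPM in Trim47-/- and 62.2, 63.4 and 59.5 CPM in wild type after 5-FU (log2 -0.81, SE 0.0458, adjusted p = 6.39e-08), again with no overlap.

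In untreated mice Trp53inp1 was 62.6, 64.0 and 60.5 CPM in Trim47-/- and 56.4, 56.1 and 56.5 CPM in wild type. This difference of 0.15 (SE 0.0445, adjusted p = 0.0265) lay just past the threshold. It missed it in DESeq2 (adjusted p = 0.0917) and when any of the 3 wild-type libraries or Trim47-/- library 1 or 2 was left out (adjusted p = 0.0562 to 0.0801). In all, the untreated comparison had 3 of the 10 genes higher in Trim47-/- (Phlda3, Ccng1 and Trp53inp1), where 17.6% of all genes tested were higher. It had 2 lower (Pmaip1 and Mdm2), where 15.4% were lower. The median log2 change was 0.07 over the 10 genes and 0.03 over all genes tested. Of the 10 genes, those that passed with at least a 2-fold difference between genotypes were Pmaip1, Mdm2 and Gdf15 after 5-FU and Pmaip1 untreated. Of all 16319 genes tested, 551 passed as at least 2-fold higher and 883 as 2-fold lower after 5-FU. Untreated, 121 did so as higher and 491 as lower.

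**Figure D2:**
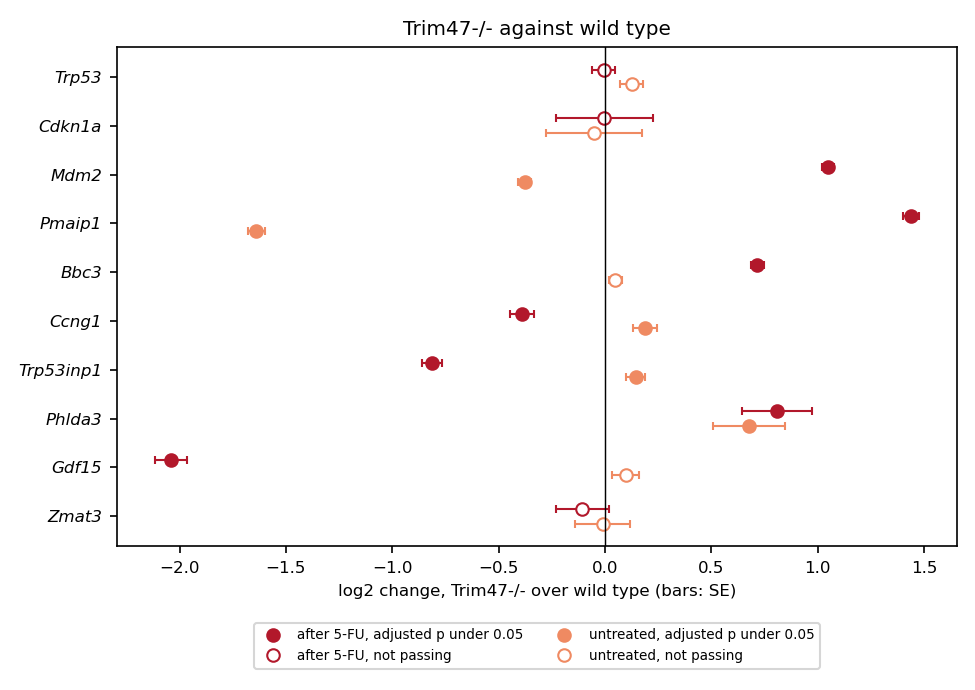
Log2 change of each gene in Trim47-/- over wild type after 5-FU (red) and untreated (orange). Bars are SE from the fit, filled points passed at an adjusted p under 0.05 and open points did not. Mdm2 and Pmaip1 lie right of 0 after 5-FU (1.05 and 1.44) and left of it untreated (-0.38 and -1.64), and Gdf15 is lowest after 5-FU (-2.04).

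The response to 5-FU itself differed in direction between the genotypes for several of the death and feedback genes. In Trim47-/-, 5-FU went with higher Pmaip1, Mdm2, Bbc3, Zmat3 and Phlda3 and with lower Gdf15, Trp53inp1, Cdkn1a, Trp53 and Ccng1 than in untreated mice. That was 5 of the 10 genes higher and 5 lower, where 29.6% of all genes tested were higher and 30.8% lower. In wild type 3 were higher after 5-FU (Zmat3, Ccng1 and Trp53inp1) and 6 lower (Pmaip1, Gdf15, Mdm2, Cdkn1a, Bbc3 and Trp53), where 25.2% of all genes were higher and 25.4% lower. The median log2 change of the 10 genes was 0.03 in Trim47-/- and -0.28 in wild type, where those of all genes were -0.01 and 0.01. Both genotype comparisons and both drug comparisons draw on the same 12 libraries, so they are not independent of each other.

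Pmaip1 was 4.52-fold higher after 5-FU than untreated in Trim47-/- (log2 2.18, SE 0.0386, adjusted p = 2.39e-12) and 1.87-fold lower in wild type (log2 -0.90, SE 0.0376, adjusted p = 4.75e-09). Mdm2 followed the same order, with 0.75 in Trim47-/- (adjusted p = 2.57e-09) and -0.68 in wild type (adjusted p = 8.44e-09). For Bbc3 the changes were smaller, 0.30 in Trim47-/- (adjusted p = 4.71e-06) and -0.37 in wild type (adjusted p = 1.33e-06). Those 3 genes rose after 5-FU in Trim47-/- and fell in wild type. Ccng1 did the opposite, at -0.23 in Trim47-/- (adjusted p = 0.00367) and 0.34 in wild type (adjusted p = 0.000356). Trp53inp1 fell by 0.83 on the log2 scale in Trim47-/- (adjusted p = 3.12e-08), against a change of 0.13 in wild type (adjusted p = 0.0299). That wild-type change missed the threshold in DESeq2 and without any of the untreated wild-type libraries or 5-FU library 1 or 2 (adjusted p = 0.0610 to 0.0903). Gdf15 fell in both genotypes, 7.19-fold in Trim47-/- (log2 -2.85, SE 0.0742, adjusted p = 6.01e-11) and 1.63-fold in wild type (log2 -0.71, SE 0.0655, adjusted p = 3.90e-06).

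Trp53, Cdkn1a and Zmat3 moved in the same direction after 5-FU in both genotypes. Trp53 was lower by 0.31 on the log2 scale in Trim47-/- (adjusted p = 0.000377), where the change was -0.18 in wild type (adjusted p = 0.0149). The wild-type call was lost without untreated library 1 (adjusted p = 0.0502) or 5-FU library 1 or 2 (adjusted p = 0.0646 and 0.0534). Cdkn1a changed by -0.61 in Trim47-/- (SE 0.227, adjusted p = 0.0366) and -0.66 in wild type (SE 0.228, adjusted p = 0.0315), and both calls depended on single libraries. In wild type the change was -0.35 without untreated library 1, which held 432 CPM (adjusted p = 0.158), and the call was also lost without 5-FU library 1 or 2 (adjusted p = 0.0805 and 0.0876). In Trim47-/- it was lost without untreated library 2 or 3 (adjusted p = 0.0780 and 0.112) or 5-FU library 2 or 3 (adjusted p = 0.136 and 0.0953), and in both genotypes without the filter on low counts (adjusted p = 0.0697 in Trim47-/- and 0.0777 in wild type).

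Zmat3 was higher after 5-FU by 0.39 on the log2 scale in Trim47-/- (SE 0.125, adjusted p = 0.0182) and by 0.49 in wild type (SE 0.127, adjusted p = 0.00753). The Trim47-/- call was lost without untreated library 2 (0.28, adjusted p = 0.0702) or 5-FU library 2 (0.30, adjusted p = 0.0833), without the filter (adjusted p = 0.0520) and in a fit of only the 6 libraries (adjusted p = 0.0521). Phlda3 changed by 0.39 in Trim47-/- (SE 0.153, adjusted p = 0.0460) and by 0.26 in wild type, where the groups overlapped (SE 0.182, adjusted p = 0.271). The Trim47-/- call on Phlda3 held in 4 of 11 alternative fits and was lost without any of the 3 untreated libraries or 5-FU library 1 or 2 (adjusted p = 0.0706 to 0.197).

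**Figure D3:**
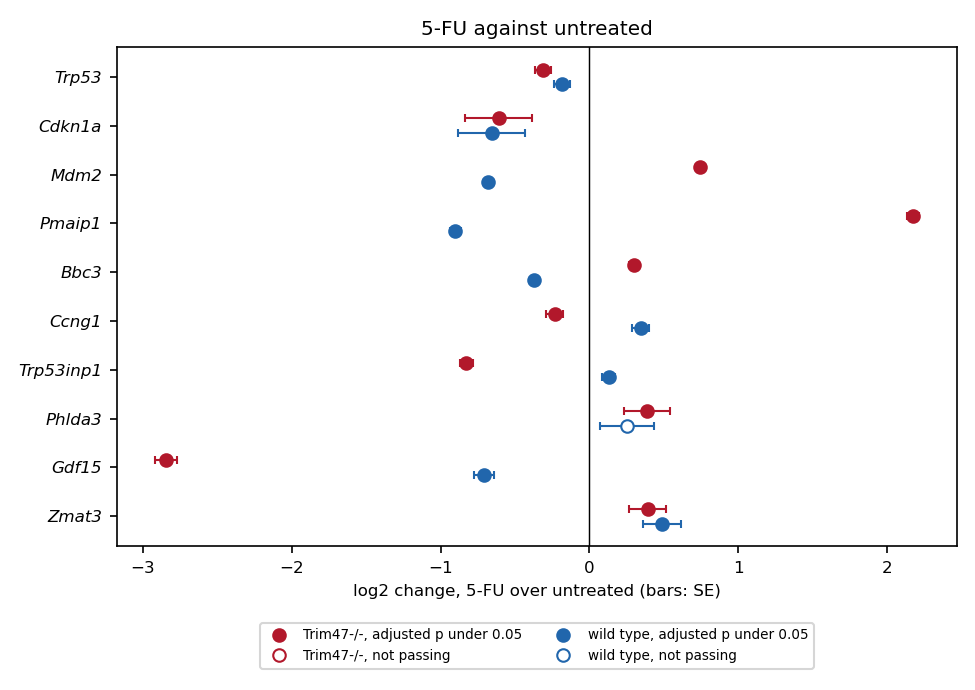
Log2 change of each gene after 5-FU over untreated in Trim47-/- (red) and in wild type (blue). Bars are SE from the fit, filled points passed at an adjusted p under 0.05 and open points did not. Pmaip1, Mdm2 and Bbc3 lie right of 0 in Trim47-/- and left of it in wild type, and Ccng1 the other way round.

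The difference between the 2 drug responses was tested directly as an interaction, the response in Trim47-/- minus that in wild type. It passed for 6 of the 10 genes, and for 8957 of all 16319 genes tested. Of the 10, 3 were higher (Pmaip1, Mdm2 and Bbc3), where 26.4% of all genes tested were higher. Another 3 were lower (Gdf15, Trp53inp1 and Ccng1), where 28.5% were lower. The values were 3.08 for Pmaip1 (SE 0.0538, adjusted p = 4.90e-12), 1.43 for Mdm2 (SE 0.0428, adjusted p = 3.61e-10) and 0.67 for Bbc3 (SE 0.0423, adjusted p = 1.59e-07). Downward they were -2.14 for Gdf15 (SE 0.0984, adjusted p = 1.21e-08), -0.96 for Trp53inp1 (SE 0.0638, adjusted p = 2.42e-07) and -0.58 for Ccng1 (SE 0.0797, adjusted p = 8.56e-05). All 6 passed in every one of 16 alternative fits. For the other 4 genes the interval of the interaction included 0, from -0.31 to 0.05 for Trp53, -0.69 to 0.79 for Cdkn1a, -0.42 to 0.68 for Phlda3 and -0.51 to 0.32 for Zmat3. The median over the 10 genes was -0.02 and that over all genes tested -0.03.

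Levels were compared between the genes as deposited FPKM (fragments per kilobase of transcript, scaled to library total). In Trim47-/- after 5-FU, Bbc3 stood first at 47.6 ± 1.46 FPKM, above Cdkn1a at 29.6 ± 8.25 without overlap. In the other 3 groups Cdkn1a and Bbc3 were the highest 2 and overlapped each other, at 31.3 ± 2.32 and 30.6 ± 0.521 FPKM in wild type after 5-FU, 45.1 ± 6.65 and 38.6 ± 0.883 in untreated Trim47-/-, and 46.0 ± 15.2 and 36.8 ± 0.576 in untreated wild type (SD, n = 3 each). Trp53 came next in every group, at 20.6 to 25.5 FPKM. In Trim47-/- after 5-FU it overlapped Mdm2 (18.8 FPKM), and Mdm2 overlapped Pmaip1 (18.3 FPKM). In untreated wild type Mdm2, Ccng1 and Pmaip1 overlapped in turn, at 14.3, 13.3 and 12.4 FPKM. Zmat3 was lowest everywhere, at 0.294 to 0.443 FPKM, and Phlda3 next above it, at 1.13 to 2.41 FPKM. In both untreated groups Gdf15 came just below Trp53, at 22 FPKM in Trim47-/- and 20.3 FPKM in wild type. In Trim47-/- after 5-FU it stood at 3.07 FPKM, below all but Phlda3 and Zmat3, and overlapped Phlda3.

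**Figure D4:**
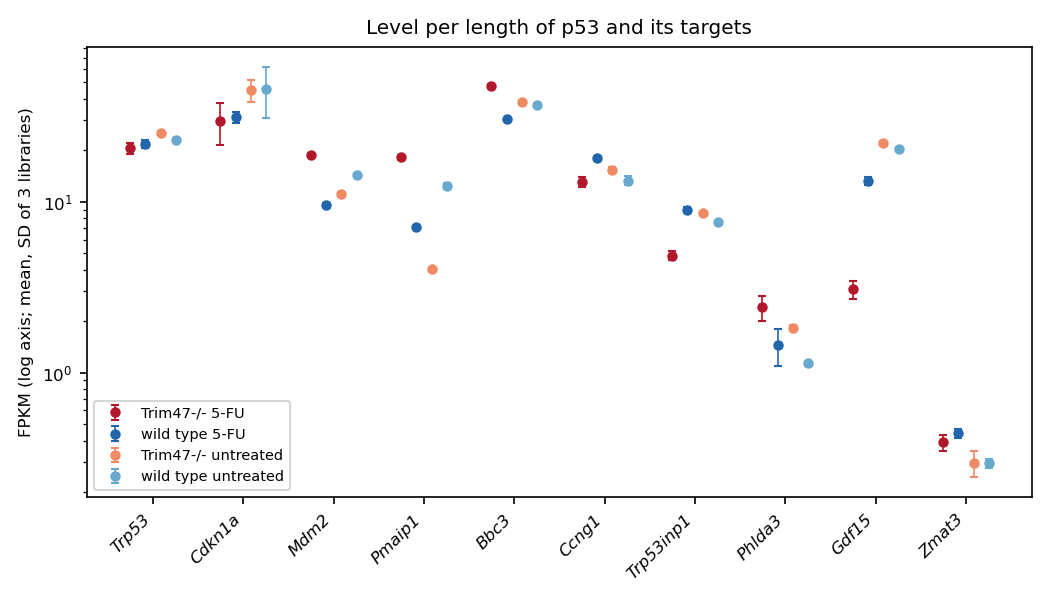
Level per transcript length in FPKM on a log axis, as mean and SD of 3 libraries for each group. Bbc3 and Cdkn1a are near the top in all 4 groups and Zmat3 is at the bottom, while Gdf15 spans 3.07 FPKM in Trim47-/- after 5-FU to 22 FPKM in untreated Trim47-/-.

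The 10 genes did not share 1 pattern over the 4 groups. Likeness was measured as the root mean square difference between the 4 group means of log2 CPM, each centred on its own mean. The closest pairs were Mdm2 with Bbc3 and Trp53 with Cdkn1a, both at 0.193, and the farthest was Pmaip1 with Gdf15 at 1.8. Among 9289 other genes averaging 10 CPM or more, those most like Mdm2 were Furin (0.0222), Sema7a (0.0543) and Map2k3 (0.0552). Those most like Cdkn1a were Shisa5 (0.0137), Nr1h2 (0.0209) and Moap1 (0.0327), and those most like Ccng1 were Foxo4 (0.00863), Elk3 (0.00968) and Poll (0.0131). With only 4 group means, this is a description of like levels in these groups.

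The wider p53 pathway was read from a list of 63 other genes, of which 62 were in the table and 60 tested. Cdkn2a is not analysed here, and Eda2r and Pltp did not pass the filter on low counts. After 5-FU, 19 of the 60 were higher in Trim47-/- than in wild type and 21 lower, set beside 27.2% and 27.6% of all genes. Untreated, 13 were higher and 11 lower, beside 17.6% and 15.4% of all genes. After 5-FU over untreated, 17 were higher and 26 lower in Trim47-/-, beside 29.6% and 30.8% of all genes. In wild type 16 were higher and 18 lower, beside 25.2% and 25.4%. The interaction had 18 higher and 19 lower, beside 26.4% and 28.5%. The median log2 change after 5-FU between genotypes was 0.03 over these 60 genes.

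Among targets that slow the cell cycle, Btg2 and Plk2 were over 2-fold lower in Trim47-/- than in wild type after 5-FU. Of 10 tested, 2 were higher and 4 lower in Trim47-/- than in wild type after 5-FU, where 27.2% of all genes were higher and 27.6% lower. Btg2, an antiproliferative cofactor of mRNA deadenylation, averaged 209.6 ± 3.48 CPM in Trim47-/- and 475 ± 14.5 CPM in wild type (log2 -1.18, adjusted p = 8.29e-12). Plk2, a polo-like kinase, averaged 63.1 ± 2.31 CPM in Trim47-/- and 142 ± 3.12 CPM in wild type (log2 -1.17, adjusted p = 3.47e-10). Gfi1, a transcriptional repressor that restrains stem cell cycling, averaged 31 ± 1.08 CPM in Trim47-/- and 59.7 ± 4.35 CPM in wild type (log2 -0.94, adjusted p = 9.80e-08). Untreated, Gfi1 differed the other way, by 0.46 (adjusted p = 8.20e-05), and its interaction was -1.41 (adjusted p = 5.78e-08).

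Among 12 tested targets that promote cell death, 4 were higher and 1 lower in Trim47-/- than in wild type after 5-FU, where 27.2% of all genes were higher and 27.6% lower. Perp, a membrane protein of desmosomes and apoptosis, averaged 21.6 ± 1.36 CPM in Trim47-/- and 9.84 ± 0.319 CPM in wild type (log2 1.13, adjusted p = 9.87e-07). Dram1, a lysosomal protein of autophagy, averaged 14.7 ± 1.55 CPM in Trim47-/- and 9.59 ± 0.700 CPM in wild type (log2 0.62, adjusted p = 0.00173). Siva1 was also higher (0.41, adjusted p = 1.10e-05). The 1 lower gene was Ei24 (log2 -0.14), which passed in 10 of 11 alternative fits. Bax, a pore-forming effector of apoptosis, was 40 ± 1.36 CPM in Trim47-/- and 36.7 ± 1.96 CPM in wild type and did not pass (0.12, adjusted p = 0.288).

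Of 7 tested targets in repair and nucleotide supply, 5 were lower in Trim47-/- than in wild type after 5-FU and 1 higher, beside 27.6% and 27.2% of all genes. Rrm2b, a subunit of ribonucleotide reductase, averaged 7.75 ± 0.750 CPM in Trim47-/- and 14.6 ± 0.837 CPM in wild type (log2 -0.92, adjusted p = 4.23e-06). Polk, a translesion DNA polymerase, changed by -0.92 (adjusted p = 0.000489) and Xpc, which recognises damage for nucleotide excision repair, by -0.41 (adjusted p = 7.22e-07). In untreated mice Rrm2b and Xpc differed upward, by 0.46 (adjusted p = 0.00140) and 0.32 (adjusted p = 1.79e-05), and 3 of the 7 were higher and none lower, beside 17.6% and 15.4% of all genes. The interaction was -1.38 for Rrm2b (adjusted p = 2.13e-06) and -0.73 for Xpc (adjusted p = 1.12e-07).

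Of 12 tested targets in metabolism and redox control, 4 were higher and 4 lower in Trim47-/- than in wild type after 5-FU, beside 27.2% and 27.6% of all genes. Ephx1, an epoxide hydrolase, fell to 1.30 ± 0.144 CPM in Trim47-/-, against 4.26 ± 0.358 CPM in wild type (log2 -1.70, adjusted p = 2.26e-05). Sco2, a copper chaperone of cytochrome c oxidase, was 13.9 ± 2.18 CPM in Trim47-/- and 6.76 ± 0.439 CPM in wild type (log2 1.04, adjusted p = 0.00155). The sestrins, stress proteins that curb mTORC1, were split, with Sesn2 at 0.85 (adjusted p = 4.66e-06) and Sesn1 at -0.55 (adjusted p = 3.56e-08). Gpx1, which had the largest untreated estimate in this list at 1.38, did not pass and varied up to 6.13-fold between libraries of 1 group.

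Regulators of p53 protein and its kinases numbered 19 tested. After 5-FU, 8 were higher and 7 lower in Trim47-/- than in wild type, beside 27.2% and 27.6% of all genes. All 19 changes were under 2-fold, but few of all genes passed with a 2-fold change either, 551 higher and 883 lower of 16319. Chek2, a kinase of the DNA damage checkpoint, averaged 14.1 ± 1.18 CPM in Trim47-/- and 23.6 ± 1.66 CPM in wild type (log2 -0.74, adjusted p = 5.11e-06). Usp7, which removes ubiquitin from Mdm2 and p53, averaged 296 ± 1.09 CPM in Trim47-/- and 220.2 ± 2.33 CPM in wild type (log2 0.43, adjusted p = 1.95e-08). Huwe1, another ubiquitin ligase of p53, was higher after 5-FU (0.30, adjusted p = 6.28e-08) and lower untreated (-0.53, adjusted p = 3.17e-09) in Trim47-/-, with an interaction of 0.82 (adjusted p = 2.40e-10).

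**Figure D5:**
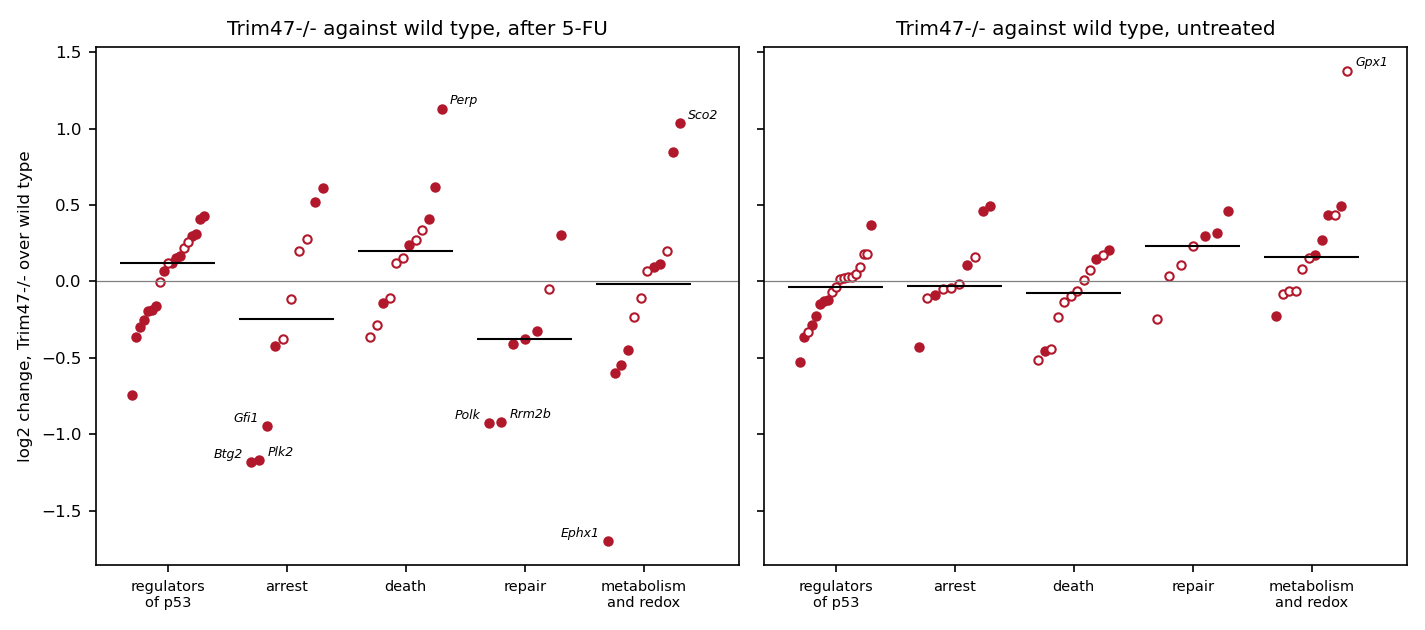
Log2 change in Trim47-/- over wild type of each of the 60 other p53 pathway genes tested, by list, after 5-FU (left) and untreated (right). Each point is 1 gene, filled where it passed at an adjusted p under 0.05 and open where it did not, bars are list medians, and genes with a change of at least 0.9 are named. After 5-FU most repair genes lie below 0, while the list of p53 regulators lies within -0.74 and 0.43.

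Other gene groups moved beside the p53 targets, and 27.2% of all genes were higher and 27.6% lower in the same comparison. Of 16 cell cycle genes that p21 lowers through the DREAM repressor complex, 5 were higher and 6 lower in Trim47-/- than in wild type after 5-FU, with a median of 0.01. Genes of the integrated stress response, which ATF4 and CHOP drive and which includes Sesn2 from the p53 list, were higher in 8 of 10 and lower in 2, with Chac1 highest at 2.23 (adjusted p = 8.47e-06). Immediate early genes, which are also raised when cells are dissociated, were lower in 9 of 10 and higher in 1. Their summed level was 10148 to 10610 CPM in Trim47-/- and 20691 to 20891 CPM in wild type after 5-FU, against 37108 to 37618 CPM in untreated Trim47-/- and 35869 to 36395 CPM in untreated wild type. Their part in the p53 target differences was not tested.

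Markers of other cells also moved with the groups. After 5-FU, all 8 monocyte and macrophage markers and all 8 neutrophil markers were higher in Trim47-/- than in wild type, and 9 of 10 LT-HSC markers were lower. In that comparison 27.2% of all genes tested were higher and 27.6% lower. The summed monocyte and macrophage level was 1028 to 1056 CPM in Trim47-/- and 594 to 607 CPM in wild type after 5-FU, against 465 to 494 CPM in untreated Trim47-/- and 635 to 641 CPM in untreated wild type. For neutrophil markers it was 5111 to 5519 CPM in Trim47-/- and 3172 to 3264 CPM in wild type after 5-FU, against 2702 to 2733 CPM in untreated Trim47-/- and 2632 to 2772 CPM in untreated wild type. The erythroid sum was 297 to 310 CPM in Trim47-/- and 335 to 352 CPM in wild type after 5-FU, against 125 to 132 CPM in untreated Trim47-/- and 74.2 to 80.1 CPM in untreated wild type. Of the markers tested, 4 of 8 erythroid, 7 of 7 megakaryocyte, 5 of 7 B cell, 1 of 5 T and NK cell, 2 of 7 dendritic and 4 of 7 endothelial and stromal markers were lower in Trim47-/- than in wild type after 5-FU, and none of these was higher. Between the untreated genotypes 17.6% of all genes tested were higher in Trim47-/- and 15.4% lower. Untreated, 6 of 8 neutrophil markers were higher in Trim47-/- than in wild type and 1 lower, with a median log2 change of 0.36, although the summed levels overlapped. There, 6 of 8 erythroid and 4 of 10 LT-HSC markers were also higher and none lower, while 4 of 8 monocyte and macrophage and 5 of 7 megakaryocyte markers were lower and none higher. Endothelial and stromal markers had 4 of 7 higher and 1 lower, dendritic markers 1 of 7 higher and 2 lower, B cell markers 1 of 7 lower, and none of 5 T and NK cell markers passed. No monocyte, neutrophil or erythroid marker was at 0 in a whole group. The part of cell makeup in the p53 target differences, untreated or after 5-FU, was not tested, and in bulk RNA a change in the number of cells of a type and a change in RNA per cell cannot be told apart.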

How the data were processed

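Per the labels' protocols, the libraries were stranded, paired-end and made from poly-A RNA, and a NovaSeq instrument read them. In the deposited table are whole-number counts per gene, not normalised, and FPKM values, both made by the authors. Per the submitters' processing notes, CASAVA 1.8, HISAT2, StringTie and edgeR were used with build GRCm38, without roles. Which tool counted, its strand setting and its annotation release were not given in the sources used here. All 10 genes had the coordinates of GENCODE M21.

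Groups and replicate numbers came from the sample titles. The test of the counts was that of edgeR 4.0.16, run in R 4.3.3 (TMM, default filter on low counts, quasi-likelihood test, Benjamini-Hochberg over all 16319 genes tested), with all 12 libraries in 1 fit, 8 residual degrees of freedom and 95% intervals from them. CPM were computed from TMM-adjusted library sizes, given with the SD of 3 libraries. Depth, 13919649 to 20703198 counts a library, limits Phlda3 and Zmat3 most. Alternatives were DESeq2 1.42.0 as test and as size factors, no filter, the replicate number as a block, a 2-fold threshold, an adjusted p under 0.01, a fit of only the 6 libraries compared, and leaving out each library. The procedure was tested on simulated counts whose spread was taken from these libraries. In them only untreated Trim47-/- differed, and far fewer genes changed than were called here. That test therefore does not show how the procedure behaves when so many genes change. Named were all 10 genes, Trim47, up to 3 passing genes of largest change per p53 list and comparison, the 3 genes most like Cdkn1a, Mdm2 and Ccng1, and at most 3 genes of each stress or cell type list. Apart from that rule, Gpx1 was named after its value was seen. Genes and lists were chosen with earlier results of these data known. Same-numbered libraries did not deviate together, so numbers were not read as pairs.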

Additional observations from a re-analysis of the deposited data

Results flagged for a closer look

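In 6 of the 10 genes the 5-FU response differed between the genotypes by edgeR's test of the interaction. The interaction is the response in Trim47-/- minus that in wild type on the log2 scale. Of the 10 genes 3 were higher and 3 lower, where 26.4% of all genes tested were higher and 28.5% lower. In all, 8957 of the 16319 genes tested passed, a share near that of the 10 genes. The interaction was 3.08 for Pmaip1, with a response of 2.18 in Trim47-/- and -0.90 in wild type. Mdm2 had 1.43, from 0.75 in Trim47-/- and -0.68 in wild type, and Bbc3 had 0.67, from 0.30 in Trim47-/- and -0.37 in wild type. Ccng1 had -0.58, from -0.23 in Trim47-/- and 0.34 in wild type. For Trp53inp1 it was -0.96, from -0.83 in Trim47-/- and 0.13 in wild type. For Gdf15 it was -2.14, from -2.85 in Trim47-/- and -0.71 in wild type.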

How the results depend on the processing

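Same-numbered libraries of different groups did not pair: the correlation of their deviations from group means was -0.117 to 0.0844 over 18 pairs, and with the replicate number as a block 7, 5, 10, 9 and 6 of the 10 genes were called, as without it (genotypes after 5-FU, genotypes untreated, 5-FU in Trim47-/-, 5-FU in wild type and interaction, in that order). With the block 8761, 5188, 9742, 8125 and 8827 genes were called in all, against 8933, 5392, 9868, 8260 and 8957 without it. Leaving out 1 library left 7 to 7, 3 to 5, 7 to 9, 6 to 9 and 6 to 6 of the 10 genes called, and 8222 to 8270, 4551 to 4652, 9177 to 9271, 7522 to 7614 and 8556 to 8684 genes in all. A 2-fold threshold left 3, 1, 2, 0 and 3 of the 10, and 1434, 612, 2183, 1619 and 2774 genes in all. In the untreated genotypes an adjusted p under 0.01 left 2 of the 10 and 3391 genes in all, and DESeq2 3 of the 10. The split of untreated calls, 2873 higher and 2519 lower in Trim47-/-, was 2567 and 2717 with DESeq2's size factors, 1988 and 2333 with DESeq2, and 2324 and 2712 in the 6 libraries. Signs turned in 24 values of single genes, none of which passed before or after. The interaction turned to -0.0095 for Pidd1 without the filter and to -0.023 for Cdkn1a under the block. The others turned when 1 library was left out. Between genotypes untreated, the range was -0.19 to 0.26 for Cdkn1a, -0.14 to 0.11 for Zmat3, -0.043 to 0.23 for Rps27l and -0.24 to 0.0088 for Dram1. After 5-FU it was -0.23 to 0.17 for Cdkn1a and -0.044 to 0.063 for Trp53. The 5-FU change of Perp in wild type was -0.0091 to 0.11. For the interaction the range was -0.26 to 0.22 for Cdkn1a, -0.0056 to 0.34 for Phlda3, -0.21 to 0.036 for Zmat3, -0.080 to 0.0024 for Apaf1 and -0.026 to 0.10 for Pidd1. Causes were not tested.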
